A study of Mus musculus with 2 samples.

Results

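The acyl-CoA thioesterase genes described here are the 10 genes Acot1 to Acot8, Acot12 and Acot13, taken by gene symbol from the 24421 genes counted. The 6 type I genes, Acot1 to Acot6, were set against the other 4. The data were 2 liver RNA-seq libraries. 1 library was labelled LKO, for a liver-specific knockout of the nuclear receptor RORα (genotype RORalpha f/f:Alb-Cre, in which the albumin promoter drives Cre in hepatocytes). The other was its control (RORalpha f/f, floxed alleles without Cre). Both came from C57BL/6 males that were 6 weeks old when a high-fat diet began and ate it for 12 weeks. The series title names genes that RORα alters as non-alcoholic steatohepatitis progresses. The sources used here do not say how many mice went into each library.

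Acyl-CoA thioesterases hydrolyse acyl-CoA to a free fatty acid and coenzyme A, and so reverse the step by which acyl-CoA synthetases activate fatty acids. The type I enzymes share an alpha/beta-hydrolase fold and their mouse genes lie in 1 cluster. Acot1 is cytosolic, Acot2 mitochondrial, and Acot3 to Acot6 peroxisomal. The other members have a hotdog fold and lie elsewhere in the genome. In mouse liver, type I genes are known as targets of the fatty acid receptor PPARα that are induced by fasting and fibrate drugs.

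Total counts were 131843686 in the library labelled LKO and 128201591 in the control library. Levels are CPM, a gene's count relative to a library size adjusted by TMM, which trims genes of extreme ratio. Each genotype had 1 library, so differences have no replicate check, no test was possible, and each ratio compares these libraries only. Intervals are 95% exact intervals that cover counting error only. Genes count as measured from a mean level of 1 CPM and 20 summed counts upward. They count as higher or lower where the change reached 1.5-fold and the interval lay wholly on 1 side of equality. Of 11137 measured genes, 10.5% were called higher in the library labelled LKO and 9.76% lower. At 2-fold these shares were 3.83% and 2.62%. The targeted gene Rora stood at 24.1 CPM in the library labelled LKO and 33.4 CPM in the control library. Its counts were 3677 and 3701, so the size of this difference depends on the scaling, and its total was not lost. This total covers all exons and checks the genotype only in part. The 9 hepatocyte markers analysed were all measured, at 130700 against 169400 CPM in sum, and 2 were lower and 0 higher. Male-biased liver genes were lower in the library labelled LKO for 20 of 22 measured genes, with a summed level of 12930 against 62410 CPM. Female-biased genes were higher for 13 of 19, at 2805 against 1358 CPM. Within this sum Cyp4a10 stood at 1002 against 176 CPM and Cyp4a14 at 601 against 115 CPM. Both genes, and Abcd2, are also on the list of PPARα target genes described below. The Y-linked genes Ddx3y, Eif2s3y and Kdm5d stood at 4.94 to 5.92 CPM in the library labelled LKO and 4.40 to 5.52 CPM in the control library, and the X-linked Xist had 36 counts against 0. Of 12 Kupffer cell markers 6 were lower and 0 higher (170 against 246 CPM in sum), and of 12 stellate cell and fibroblast markers 6 were higher and 0 lower (297 against 206 CPM). Of 10 endothelial markers 0 passed in either direction (502 against 416 CPM). Monocyte markers (58.7 against 71.2 CPM) and cholangiocyte markers (47.1 against 57.9 CPM) had 1 higher gene each, of 5 and 3 measured. Of the 7 adipocyte markers, Plin1, Lep and Retn had 0 counts in both libraries, Adipoq 4 against 0 and Cidea 38 against 0. Cfd stood at 21.5 against 12.0 CPM, and Fabp4 at 1.46 against 1.40 CPM, a ratio of 1.05 (interval 0.848 to 1.29). The part of these shifts in the results below was not tested. In bulk liver, fewer cells of a type and less RNA per cell cannot be told apart.

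The peroxisomal enzymes differ from their cytosolic and mitochondrial relatives at the carboxyl terminus, where many peroxisomal proteins carry their import signal. The last 30 coding bases before the stop codon are shown for the type I genes, and for Acot8 as the peroxisomal enzyme outside the cluster, because they mark the compartments by which the values below are ordered. Capitals mark the last 3 codons. The sequences are those of the longest coding sequence of each gene in GENCODE M21 (GRCm38).
Acot1: agtgagtgtttgcatgtgtctCCTAAAATA
Acot2: ttcttccacaaacagttgggtAGCAAGAGT
Acot3: ggcaaaaagaagacaatcccaGCAAAACTG
Acot4: agtacccacagcagagcctccTGTAGACTG
Acot5: ggggacaagaggccaagcccaGCAAAACTA
Acot6: ggtgaaaagcctgccaggcacAGCAAACTG
Acot8: ttgaagcctcaggtgtcagagAGTAAGCTA
In each of the 5 peroxisomal genes the last codon is CTG or CTA, whereas Acot1 ends in ATA and Acot2 in AGT.

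All 6 type I genes had higher levels in the library labelled LKO. The 4 that were measured, Acot1 to Acot4, were called higher, each at more than 2-fold, and they were above 1 CPM in the control library too. Over all measured genes 10.5% were called higher, and 3.83% at 2-fold. The median log2 ratio of Acot1 to Acot4 was 1.65, against 0.00 over all measured genes. Acot5 and Acot6 were counted but did not pass the filter. Summed over the 6 genes, type I transcripts stood at 77.5 CPM in the library labelled LKO and 25.8 CPM in the control library, 3.01-fold higher (interval 2.89 to 3.14). Leaving out any 1 of the 6 from the sum gave 2.58-fold to 3.74-fold.

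Acot1 had 3961 counts in the library labelled LKO and 1328 in the control library. This enzyme cleaves long-chain acyl-CoA in the cytosol. The levels were 26.0 and 12.0 CPM, 2.17-fold higher (interval 2.04 to 2.31), with a log2 ratio of 1.12. Its mitochondrial counterpart Acot2 had 2252 and 481 counts, or 14.8 and 4.34 CPM. That was 3.40-fold higher (interval 3.08 to 3.76), a log2 ratio of 1.77. Acot1 was the type I gene of highest CPM in both libraries and had the lowest ratio of the 6.

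Among the peroxisomal genes, Acot3 differed the most. Its product acts on long-chain acyl-CoA, and its counts were 3552 in the library labelled LKO and 523 in the control library. The levels of 23.3 and 4.72 CPM gave a 4.94-fold higher value (interval 4.50 to 5.42) and a log2 ratio of 2.30. Only 73 of the 11137 measured genes had a higher ratio, while 133 exceeded Acot2, 180 exceeded Acot4 and 337 exceeded Acot1. Acot4, whose mouse enzyme is known for succinyl-CoA and dicarboxylyl-CoA, had 1830 and 460 counts, or 12.0 and 4.15 CPM. It was 2.89-fold higher (interval 2.61 to 3.21), a log2 ratio of 1.53.

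Acot5 and Acot6 were scarce. Acot5, a peroxisomal medium-chain enzyme in mouse, had 136 counts in the library labelled LKO and 39 in the control library, which is 0.892 and 0.352 CPM. The ratio of 2.54 had an interval from 1.76 to 3.72. Acot6, known in mouse for branched-chain acyl-CoA, had 86 and 24 counts, or 0.564 and 0.217 CPM, with a ratio of 2.61 (interval 1.64 to 4.28). Both intervals lie above 1.5, and they overlap those of Acot1 and Acot4.

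**Figure D1:**
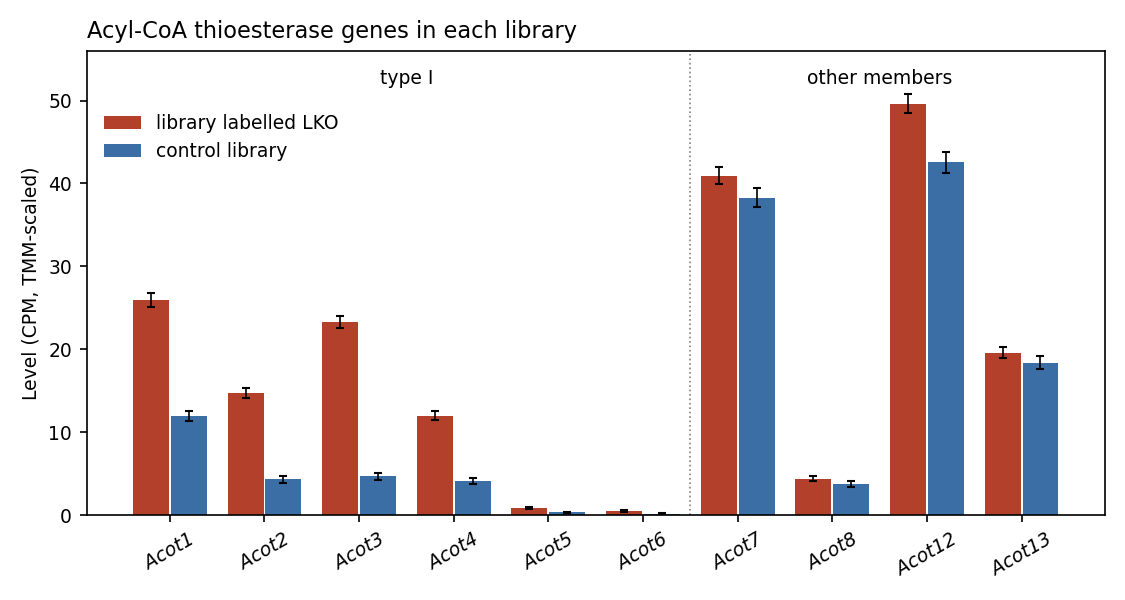
Levels of the 10 acyl-CoA thioesterase genes (CPM, TMM-scaled) in the library labelled LKO (red) and the control library (blue); error bars are approximate 95% ranges from the square root of the count and show counting error only. The 4 measured type I genes stand at 12.0 to 26.0 CPM in the library labelled LKO and 4.15 to 12.0 CPM in the control library, while Acot7, Acot8, Acot12 and Acot13 have bars of nearly equal height.

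The other 4 members differed little. Of the 4, 0 were called higher and 0 lower, where 10.5% of all measured genes were called higher and 9.76% lower. For 4 genes a count of 0 is near those shares. The median log2 ratio of these 4 members was 0.16. In sum they stood at 115 CPM in the library labelled LKO and 103 CPM in the control library, 1.11-fold higher (interval 1.09 to 1.14). Acot12, a cytosolic hydrolase of acetyl-CoA, was the most abundant member by count, with 7565 counts in the library labelled LKO and 4715 in the control library. At 49.6 and 42.5 CPM its ratio was 1.17 (interval 1.12 to 1.21). Acot7, a cytosolic enzyme best known from brain, had 6245 and 4244 counts, or 41.0 and 38.3 CPM, a ratio of 1.07 (interval 1.03 to 1.11). Acot13, also called Them2, a small enzyme that binds the phosphatidylcholine transfer protein Pctp, had 2993 and 2041 counts. Its 19.6 and 18.4 CPM gave a ratio of 1.07 (interval 1.01 to 1.13). Acot8, the peroxisomal hotdog-fold enzyme of broad substrate range, had 675 and 419 counts, or 4.43 and 3.78 CPM, a ratio of 1.17 (interval 1.04 to 1.33). So Acot8 stood nearer to Acot7, Acot12 and Acot13 than to Acot3 to Acot6, with which it shares the compartment. This does not extend to all hotdog genes, since Acot11, outside the members, was 2.26-fold higher (interval 1.95 to 2.62).

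The size of each ratio depends on scaling. Scaling to the total count raised every log2 ratio by 0.42 and totals without the 20 most abundant genes raised it by 0.12. With total-count scaling the type I log2 ratios ran from 1.54 to 2.72. Those of the other 4 then ran from 0.51 to 0.65, and Acot8 and Acot12 passed 1.5-fold. Correction for transcript length and GC content moved the log2 ratio of Acot13 from 0.09 to 0.49. The other 4 then ran from 0.11 to 0.49, with 0 called, and the type I genes from 1.19 to 2.30. The share called over all measured genes after this correction is not given here.

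**Figure D2:**
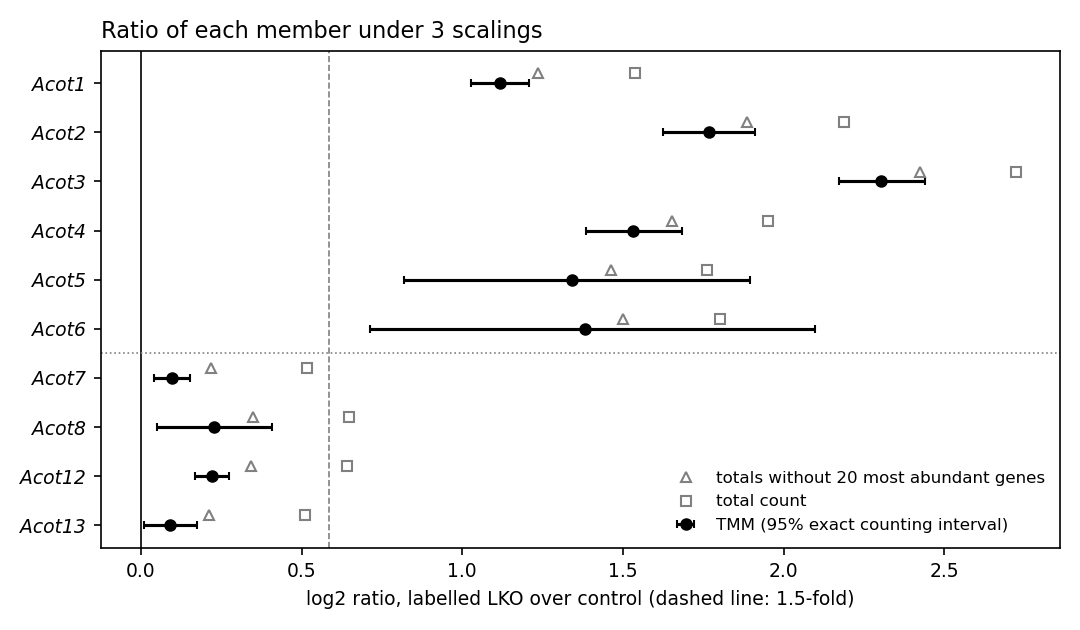
The log2 ratio of each member, library labelled LKO over control, with TMM scaling (filled points, 95% exact counting intervals) and with 2 other scalings (open symbols); the dashed line is 1.5-fold. Under all 3 scalings each of the 6 type I genes lies to the right of the dashed line and of each of the other 4 members.

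Comparisons between members do not depend on scaling, since both counts of a library are divided by the same number. Correction for length and GC content differs between genes, and the quotients below are without it. The summed type I ratio was 2.70 times that of the other 4 members (interval 2.58 to 2.83). In each of the 24 pairs of 1 type I gene and 1 other member, the type I gene had the higher ratio and the interval excluded 1. The smallest such quotient was 1.85 (interval 1.61 to 2.12), for Acot1 over Acot8, and the largest was 4.63 (interval 4.16 to 5.16), for Acot3 over Acot13. Type I genes held 40.3% of all counts of the 10 members in the library labelled LKO (interval 39.8 to 40.9) and 20% in the control library (interval 19.4 to 20.7).

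The type I genes did not share 1 ratio. Of 15 pairs among them, 8 had a quotient whose interval excluded 1. The ratio of Acot3 was 2.28 times that of Acot1 (interval 2.04 to 2.54), 1.45 times that of Acot2 (interval 1.27 to 1.66) and 1.71 times that of Acot4 (interval 1.49 to 1.96). Acot2 was 1.57 times Acot1 (interval 1.40 to 1.76). Pairs of Acot5 or Acot6 with Acot1, Acot2 or Acot4 had intervals that included 1. The peroxisomal genes Acot3 to Acot6 in sum were 3.89-fold higher, against 2.50-fold for Acot1 and Acot2 in sum, a quotient of 1.56 (interval 1.43 to 1.70). This did not hold for each peroxisomal gene. Acot3 at 4.94 stood above Acot2 at 3.40, but Acot4, Acot5 and Acot6 at 2.89, 2.54 and 2.61 stood below it. Within the cluster, the share of counts from Acot1 was 33.5% in the library labelled LKO (interval 32.7 to 34.4) and 46.5% in the control library (interval 44.7 to 48.4). For Acot3 the shares were 30.1% (interval 29.2 to 30.9) and 18.3% (interval 16.9 to 19.8). The share of Acot4 was 15.5% and 16.1%, with overlapping intervals.

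Levels of different genes were compared as CPM per kilobase of the longest annotated transcript. On this scale Acot13 and Acot7 were the highest in both libraries, at 27.2 each in the library labelled LKO and 25.5 and 25.4 in the control library, and did not differ beyond counting error. Acot12 came next, at 16.2 and 13.9. Acot1 followed at 9.94 in the library labelled LKO and 4.58 in the control library. Acot3 and Acot2 stood at 6.79 and 6.73 in the library labelled LKO, within counting error of each other. In the control library Acot8 at 2.96 preceded Acot2 at 1.98 and Acot3 at 1.38, so Acot2 and Acot3 stood above Acot8 only in the library labelled LKO. The level of Acot8 there was 3.47. Acot4, Acot5 and Acot6 were lowest, at 1.93, 0.588 and 0.156 in the library labelled LKO and 0.669, 0.232 and 0.0598 in the control library. This order depends on the length used. With the union of annotated exons Acot2 and Acot8 in the control library did not differ beyond counting error, nor did Acot8 and Acot3 with coding length, and with either length Acot13 stood above Acot7. The low place of Acot4 rests on an annotated transcript of 6203 bases. Per kilobase of coding length, Acot4 stood at 9.48 and 3.28, against 10.8 and 3.19 for Acot2.

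The type I genes lie on chromosome 12 in the order Acot2, Acot1, Acot4, Acot3, Acot5 and Acot6, on the plus strand and within 123.5 kb (GENCODE M21, GRCm38, the assembly of mm10). Acot2 spans 83987861 to 83993873 and Acot6, at the far end, 84100654 to 84111349. Acot3, with the highest ratio, spans 84052144 to 84060402. Of 31 annotated genes within 250 kb, 15 were counted, the 6 type I genes among them. The other counted neighbours had lower ratios than the measured type I genes, apart from Pnma1, whose 27 counts in the library labelled LKO and 7 in the control library gave 2.80 (interval 1.19 to 7.63). Among those measured, Papln had a ratio of 1.67 (interval 1.32 to 2.13), Elmsan1 1.52 (interval 1.42 to 1.63), Numb 1.03 (interval 1.01 to 1.05), Ptgr2 0.877 (interval 0.847 to 0.908) and Zfp410 0.761 (interval 0.723 to 0.802). Riox1, Dnal1 and Fam161b did not pass the filter, with ratios of 1.40, 1.29 and 1.17. Numb stood at 123 CPM in the library labelled LKO and 120 CPM in the control library, while Ptgr2 stood at 46.8 CPM in the library labelled LKO and 53.3 CPM in the control library.

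**Figure D3:**
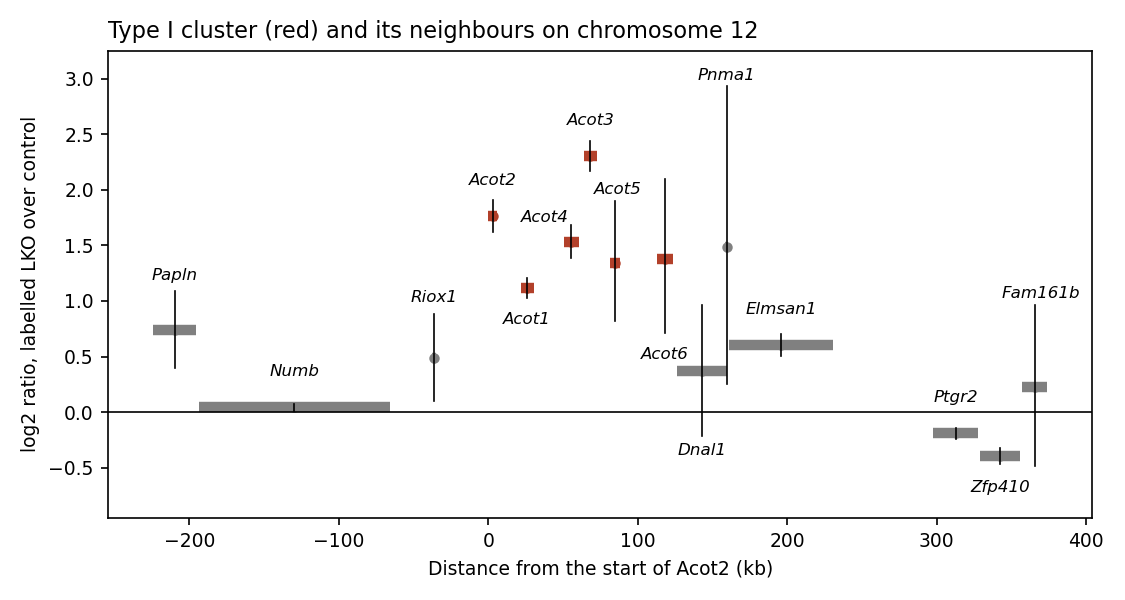
The log2 ratio, library labelled LKO over control, of the type I genes (red) and the other counted genes within 250 kb (grey), by distance from the start of Acot2 in kb; bars span each gene and vertical lines are 95% exact counting intervals. The 6 Acot genes lie between 1.12 and 2.30, and the neighbours on either side lie lower except Pnma1, whose interval is wide.

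The other members lie apart from the cluster. Acot7 is on chromosome 4 (152178134 to 152271855, plus strand), Acot8 on chromosome 2 (164792765 to 164804882, minus strand), Acot13 on chromosome 13 (24817948 to 24831540, minus strand) and Acot12 on the same chromosome (91741512 to 91786148, plus strand). All 10 are annotated as protein coding. The sources used here do not say whether counting used strand, so overlapping reads cannot be told apart. Acot8 overlaps 1052 bases of Snx21 on the opposite strand, whose level was 2.58 CPM in the library labelled LKO and 2.01 CPM in the control library. Acot12 overlaps 361 bases of the antisense gene 4833422C13Rik, at 7.11 and 5.02 CPM. Acot4 and Acot3 both overlap the antisense gene 4732463B04Rik and the joint transcript model Gm49366, which are not among the gene symbols counted.

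The type I genes are close copies, which bears on how reads were assigned. Their coding sequences were 74.5% to 95.5% identical over aligned bases, highest for Acot1 and Acot2. Of all 50-base stretches of the longest transcript, 27.7% for Acot2, 22.8% for Acot5, 19.5% for Acot3, 18.7% for Acot1, 6.72% for Acot6 and 4.87% for Acot4 occurred exactly in a transcript of another gene. For Acot7, Acot8, Acot12 and Acot13 the share was 0.0%. How reads with several alignments were treated is not stated in the labels, so the split among the 6 genes is uncertain, most of all for Acot1 with Acot2 and for Acot5. Its part in the differences among the 6 and in the summed ratio was not tested. For Acot3, the gene with the highest ratio, 11.2% of stretches were shared with Gm49366, 5.06% with Acot1 and 0.92% with Acot2. Gm49366 is not among the gene symbols counted, and 7.69% of the stretches of Acot3 were shared with a counted gene.

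**Figure D4:**
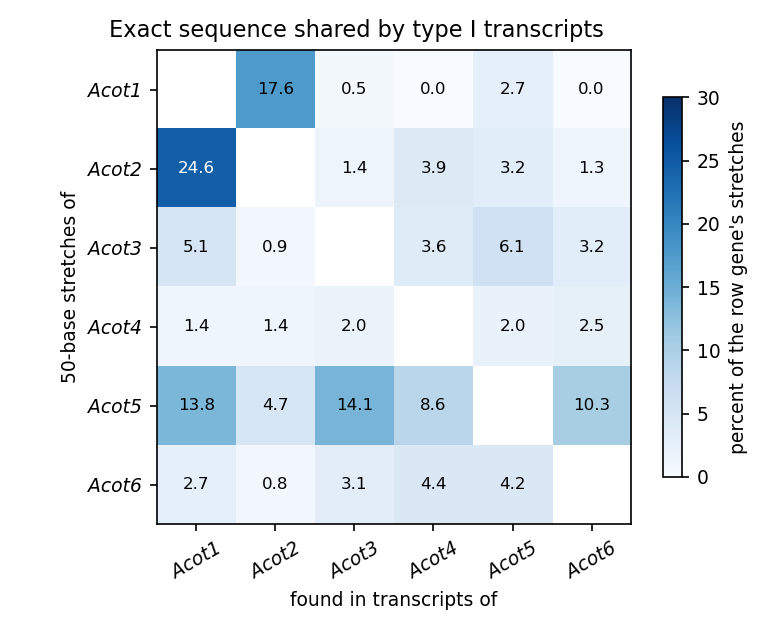
Percent of the 50-base stretches of each type I gene's longest transcript (rows) that occur exactly in any transcript of another type I gene (columns). Acot1 and Acot2 share the most, 24.6% of the stretches of Acot2 and 17.6% of those of Acot1, and Acot5 shares 13.8% with Acot1 and 14.1% with Acot3.

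Promoter windows of 250 bases before to 50 after the gene start were found for 8 of the 10 members (RefSeq, GRCm38.p6). Starts are those of RefSeq, and the Acot7 window (chr4:152185358-152185657) lies inside the GENCODE gene span given above, not at its start. PPARα binds with RXR to a direct repeat with 1 base between its AGGTCA units, here AGGTCANAGGTCA, and RORα binds AGGTCA after an A/T-rich stretch, known as a RORE. Both strands were searched, the repeat with up to 2 mismatches, and a repeat and a single AGGTCA may overlap. The repeat was found in Acot4 and Acot12, and in 3.86% of all 32851 promoter windows. In Acot4 it starts 13 bases before the gene start. In Acot12, where it has 1 mismatch, as in 0.55% of windows, it starts 110 bases before. AGGTCA was found in Acot3, Acot4, Acot5 and Acot12, and in 16.26% of windows. The windows of Acot1, Acot2, Acot7 and Acot8 held neither. The RORE was searched only in a strict form: A or T, A, A or T, any base, then TAGGTCA. None of the 8 windows held this form, which 0.18% of windows hold. In the Acot5 window an AGGTCA follows the bases cataa, which the strict form leaves out. Acot3 is shown for its ratio and Acot4 and Acot12 for their repeats, with matches to AGGTCA or to the repeat in capitals. The repeat in Acot4 stands before a gene at 2.89-fold and that in Acot12 before a gene at 1.17-fold.
Acot3, chr12:84051894-84052193, plus strand: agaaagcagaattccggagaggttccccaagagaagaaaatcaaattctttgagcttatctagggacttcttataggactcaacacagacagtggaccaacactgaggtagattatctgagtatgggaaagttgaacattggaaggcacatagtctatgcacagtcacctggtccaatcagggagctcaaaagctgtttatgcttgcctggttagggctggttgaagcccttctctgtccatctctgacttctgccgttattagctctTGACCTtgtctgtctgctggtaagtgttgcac
Acot4, chr12:84038129-84038428, plus strand: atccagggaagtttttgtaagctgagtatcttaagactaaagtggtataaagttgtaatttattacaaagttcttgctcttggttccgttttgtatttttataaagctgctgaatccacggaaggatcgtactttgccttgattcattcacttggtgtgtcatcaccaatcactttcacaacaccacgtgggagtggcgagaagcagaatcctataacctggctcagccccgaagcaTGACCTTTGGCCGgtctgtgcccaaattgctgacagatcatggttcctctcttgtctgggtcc
Acot12, chr13:91741271-91741570, plus strand: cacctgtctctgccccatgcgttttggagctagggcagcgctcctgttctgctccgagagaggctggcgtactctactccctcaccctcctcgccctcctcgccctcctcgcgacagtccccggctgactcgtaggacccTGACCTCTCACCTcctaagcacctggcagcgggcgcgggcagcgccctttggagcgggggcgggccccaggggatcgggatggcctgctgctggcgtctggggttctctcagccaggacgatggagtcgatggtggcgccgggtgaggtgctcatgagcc

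Genes that act beside the thioesterases were taken from lists. Of 18 measured genes of other thioesterases and CoA hydrolases, 2 were higher and 2 lower (median log2 ratio 0.02). That is near the shares over all measured genes, 10.5% higher and 9.76% lower. Acnat2, an acyltransferase gene structurally related to the type I family, had 3911 counts in the library labelled LKO and 1108 in the control library, 2.57-fold higher (interval 2.40 to 2.75). Its relative Baat, which conjugates bile acids, had a log2 ratio of −0.44. Acot11, or Them1, a long-chain thioesterase of the hotdog group, stood at 4.99 and 2.21 CPM, 2.26-fold higher (interval 1.95 to 2.62). Acot9, a mitochondrial thioesterase, had 151 and 113 counts and a ratio of 0.971. Acot10 had 0 counts in both libraries. On the other side, Them4 had a log2 ratio of −1.09, and Nudt7, a peroxisomal CoA hydrolase gene also on the male-biased list, stood at 416 and 983 CPM, a log2 ratio of −1.24.

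Enzymes that make acyl-CoA were also higher in part. Of 15 measured acyl-CoA synthetase genes 6 were higher and 0 lower (median log2 ratio 0.38), where 10.5% of all measured genes were higher and 9.76% lower. Acsl1, the main long-chain synthetase of liver, stood at 1451 CPM in the library labelled LKO and 906 CPM in the control library, a ratio of 1.60. Acss3 had the highest ratio of that list, 3.47. Of 11 CoA synthesis and recycling genes 5 were higher and 0 lower (median log2 ratio 0.34). Vnn1, a pantetheinase gene, stood at 82.1 and 15.2 CPM, a ratio of 5.39 (interval 5.12 to 5.68). Pank1, a pantothenate kinase gene at the entry of CoA synthesis, stood at 136 and 73.8 CPM. Of 10 acyl-CoA binding and partner genes 1 was higher and 1 lower (median log2 ratio −0.10), near the shares over all measured genes. The lower one was Acbd3, at a log2 ratio of −0.60, which lost its call with total-count scaling, with totals without the 20 most abundant genes, after correction for transcript length and GC content, and at a mean level of at least 5 CPM. The higher one was Pctp, the partner of Acot13, at 51.3 and 26.3 CPM, a ratio of 1.96 (interval 1.87 to 2.04). Acot13 itself had 1.07.

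Of 40 measured PPARα target genes other than thioesterases, 21 were higher and 0 lower (median log2 ratio 0.67). Over all measured genes the shares were 10.5% and 9.76%. Acot1 to Acot4 at 1.12 to 2.30 fall inside the range of this list, from −0.43 for Fabp1 to 5.46 for Cyp4a31. Cyp4a31 and Cyp4a32, omega-hydroxylase genes, had the highest ratios, and Hadhb and Acaa2 of mitochondrial β-oxidation had log2 ratios of 0.01 and −0.37. Among regulators, Ppara itself stood at 298 CPM in the library labelled LKO and 170 CPM in the control library, a ratio of 1.76 (interval 1.73 to 1.79). Pparg had a ratio of 2.79 and the coactivator gene Lpin1 5.17, whereas Hnf4a had a log2 ratio of −0.22. Of 13 regulator genes 4 were higher and 0 lower. With total-count scaling 33 of the 40 targets, 9 of the 13 regulators, 11 of the 15 synthetases and 6 of the 18 other hydrolases were higher. That scaling raises the log2 ratio of every gene, and its share of higher genes over all measured genes is not given here. These counts are therefore not results about the lists. Negative log2 ratios above −0.42 turn positive with total-count scaling.

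**Figure D5:**
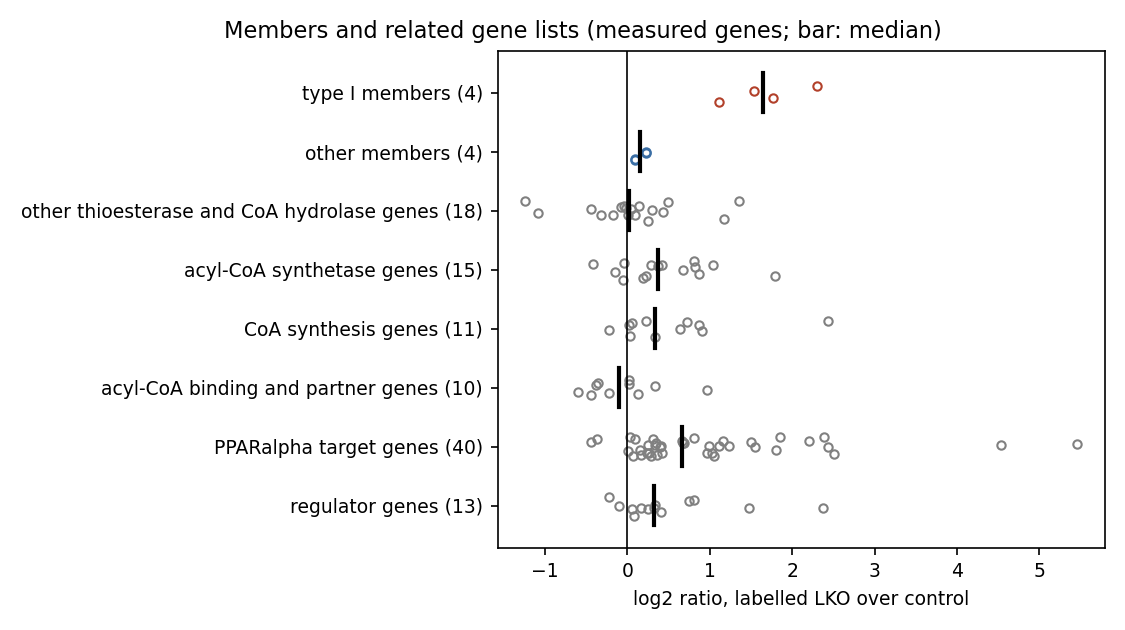
The log2 ratio, library labelled LKO over control, of measured type I genes (red), the other 4 members (blue) and 6 related gene lists (grey), with the number of genes in brackets and black bars at the medians. The type I median of 1.65 is the highest of the 8, and the PPARα targets spread from −0.43 to 5.46.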

How the data were processed

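The authors deposited 1 table of raw read counts per gene symbol for each library. Per the labels' protocols, 500 ng of Trizol-extracted total RNA went into a LEXOGEN mRNA-Seq kit. TopHat, edgeR and build mm10 are named in the submitters' processing notes; the sources used here name no counter, annotation or read layout. TMM factors (edgeR 4.0.16, R 4.3.3) were 1.16 for the library labelled LKO and 0.865 for control. Ratios of CPM have Clopper-Pearson intervals given the summed count (SciPy 1.17.1); quotients between members have log-normal intervals from Poisson errors. PCR duplicates are not independent molecules, so intervals cover counting error only. Members and gene lists were chosen with earlier results of these data known. Named genes are all members, Rora, the counted neighbours, and the highest 3, lowest 3 and most abundant 2 of each list. Not all genes that this rule names are reported here. Acot9, Acot10, Adipoq, Cidea, Plin1, Lep, Retn and Xist fall outside this rule and were named after their values were seen. Alternatives were other scalings (DESeq2 1.42.0 among them), added counts, filters and thresholds. The interval procedure was tested on simulated Poisson counts.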

Additional observations from a re-analysis of the deposited data

How the results depend on the processing

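No member's ratio and no sum over members reversed its direction under the alternatives run. Among other genes, total-count scaling, which adds 0.42 to every log2 ratio, turns small negative values such as those of Hnf4a, Acaa2 and Acot9 positive. The summed type I log2 ratio of 1.59 ran from 1.58 (upper quartile) to 2.01 (total count) over the scalings, added counts, widened intervals and lowess correction for the length and GC content of transcripts. It ran from 1.37 to 1.90 when 1 gene was left out of the sum, a choice made after seeing the data. At a fold threshold of 3, 2 type I genes were called higher, and with no filter beyond a summed count of 1, 6 were. The shares over all genes at that threshold and with that filter are not given here. These counts are therefore not set against a background. With total-count scaling 2 of the other members (Acot8 and Acot12) and 33 PPARα targets, against 21, were called higher. The share over all measured genes under that scaling is not given here. No paired analysis was possible because each genotype has 1 library, and for the same reason no library could be left out. Depth limits Acot5 and Acot6, whose intervals span more than 2-fold. Per-length levels moved beyond counting error for 11 of 20 values with the union of exons and 19 of 20 with coding length, the latter chosen after seeing the data.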
